A study of Mus musculus with 116 samples.

Results

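The comparison described here sets cycling against G1-arrested ligase IV-deficient cells at one Cas9 break in c-Myc. Its members are the junction lists of the 2 groups whose titles name clone A1 of Lig4-/- cells, Cas9, and either the cycling state or the arrested set b. They are 6 of the 116 samples of the series, 3 libraries in each group. All 6 came from 1 clone of mouse pro-B cells, B-cell precursors made to grow in culture by the v-Abl oncogene, and all carried an Emu-Bcl2 transgene. Cas9 and a guide RNA against c-Myc were nucleofected into cells of both groups. The arrested cells were held in G1 by 96 h in 3 µM STI-571, an inhibitor of the Abl kinase, and the cycling cells received none. The drug and the cell cycle state therefore cannot be told apart. WT cells (clone A, also with the Emu-Bcl2 transgene), arrested and cycling, with 3 libraries each, served as the reference with ligase IV. The labels do not say that replicates came from separate cultures, so every p-value measures only the spread between these libraries, which may be technical.

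Ligase IV seals broken ends in classical non-homologous end joining, together with the Ku70-Ku80 heterodimer that binds and protects the ends. Cells without it still join breaks by alternative end joining, which often uses microhomology, short identical stretches that lie on both sides of the break and that end resection exposes. Resection is limited in G1 and rises when cells enter S and G2. In arrested pro-B cells of this kind the RAG recombinase also cuts the Igk light chain locus, which can supply a second broken end.

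Each library was read outward from a primer beside the break (the bait) into the sequence joined to the broken end (the prey). The bait ends at base 61987303 and the unjoined other end starts at base 61987304 of chromosome 15 in mm10. This point lies inside Myc, which RefSeq places at 61985341 to 61990361, 1962 bp from its lower coordinate; exon and intron annotation was not used here. The letters around the break and those of the recurrent junctions are given first, because the deletions turn on short repeats in them. They are the majority letters of the cycling reads (at least 99.5% agreement and 290 reads at each of the 80 positions), 5′ to 3′ on the plus strand. In the intact locus (chr15:61987264-61987343) the capitals mark a GGG that starts at the 4th base to the right of the break; Cas9 commonly reads a motif of the form NGG beside its target.

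Unbroken: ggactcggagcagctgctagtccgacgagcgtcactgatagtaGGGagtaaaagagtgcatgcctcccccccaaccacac

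The leading junctions of the cycling libraries are numbered C1 to C10 by mean share. For C1 to C5 the intact letters are shown with the repeat that the junction used in capitals, once on each side of the break.

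C1 locus: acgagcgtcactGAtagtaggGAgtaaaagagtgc
C2 locus: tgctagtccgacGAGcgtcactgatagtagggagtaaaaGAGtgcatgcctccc
C3 locus: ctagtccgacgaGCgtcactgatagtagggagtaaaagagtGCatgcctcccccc
C4 locus: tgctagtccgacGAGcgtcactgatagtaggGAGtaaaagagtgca
C5 locus: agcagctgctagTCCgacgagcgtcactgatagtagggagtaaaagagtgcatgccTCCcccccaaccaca

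In the joined products one copy of each repeat is kept (capitals), and everything between the copies is gone.

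C1 product: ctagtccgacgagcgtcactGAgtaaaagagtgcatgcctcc
C2 product: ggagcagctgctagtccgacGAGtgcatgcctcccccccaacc
C3 product: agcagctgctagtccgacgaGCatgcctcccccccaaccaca

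The junctions that recurred in the arrested libraries are numbered A1 to A8, and A8 is the same junction as C6. The first 3 lie within 5 bp of the break; A1 and A2 hold unaligned bases between bait and prey (capitals), and A3 has neither overlap nor insertion.

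A1 product: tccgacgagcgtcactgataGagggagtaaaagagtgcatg
A2 product: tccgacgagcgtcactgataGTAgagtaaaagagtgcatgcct
A3 product: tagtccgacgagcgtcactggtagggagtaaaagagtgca

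The labels give 310675 as the number of raw reads used for normalization of each of the 6 libraries, and the lists hold 34170 junctions in all. Sequencing runs, as read from the read names, were 390, 382 and 364 for arrested replicates 1, 2 and 3, and 394, 394 and 392 for the cycling replicates, so the groups shared no run. Run and group cannot be told apart within these 6 libraries. Run 392 also held replicates 1 and 2 of another arrested set of the same clone (set c), and those give the within-run values below. One arrested library stood apart. Replicate 2 carried unaligned bases in 62 of its 100 junctions, against 12 of 74 and 10 of 85 in replicates 1 and 3. It also held all 11 junctions of its group in the Igk region, and 36% of its rows had no recorded read length, against 8.11% and 10.6%. Results that rest on it are given with and without it.

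A further property of the lists bears on every comparison between classes. Deletions were listed with repeated rows of the same junction, up to 605 rows of one in a cycling library, whereas translocations and inversions almost never were. Of the 872 translocations outside Igk in the cycling libraries 850 were distinct, as were 644 of the 646 inversions, but only 2166 of the 20752 deletions of 1 to 100 bp. How the authors' pipeline treated copies is not given in the sources used here. Deletions are thus numbers of reads, and the other classes are close to numbers of distinct junctions, so shares that mix them are also given with each distinct junction counted once. Reads carry no molecular identifiers, and the intervals and limits below cover counting error only.

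Cycling Lig4-/- cells yielded far more junctions than arrested ones. The arrested libraries held 74, 100 and 85 junctions, which is 23.8, 32.2 and 27.4 per 100000 raw reads. The cycling libraries held 10022, 13060 and 10829, or 3226, 4204 and 3486 per 100000. The groups did not overlap. The means were 27.8 ± 4.20 and 3638 ± 507 per 100000 (SD, n = 3 each), a ratio of 131. On the log2 scale, with 0.5 added to each count, the difference was 7.03, with a two-sided exact permutation p of 0.1. With 3 libraries against 3 this is the smallest p the test can give, and after Benjamini-Hochberg adjustment over the 18 measures compared it became 0.18. Where groups do not overlap below, these 2 values are the same, so no such difference can reach 0.05 by this design. Counting each distinct junction once gave a log2 difference of 4.92, and counting each distinct fragment once gave 6.27; the fragment counts were added after the values were seen. Within run 392, cycling replicate 3 exceeded the 2 arrested libraries of set c by 6.35 and 4.10 on the log2 scale.

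**Figure D1:**
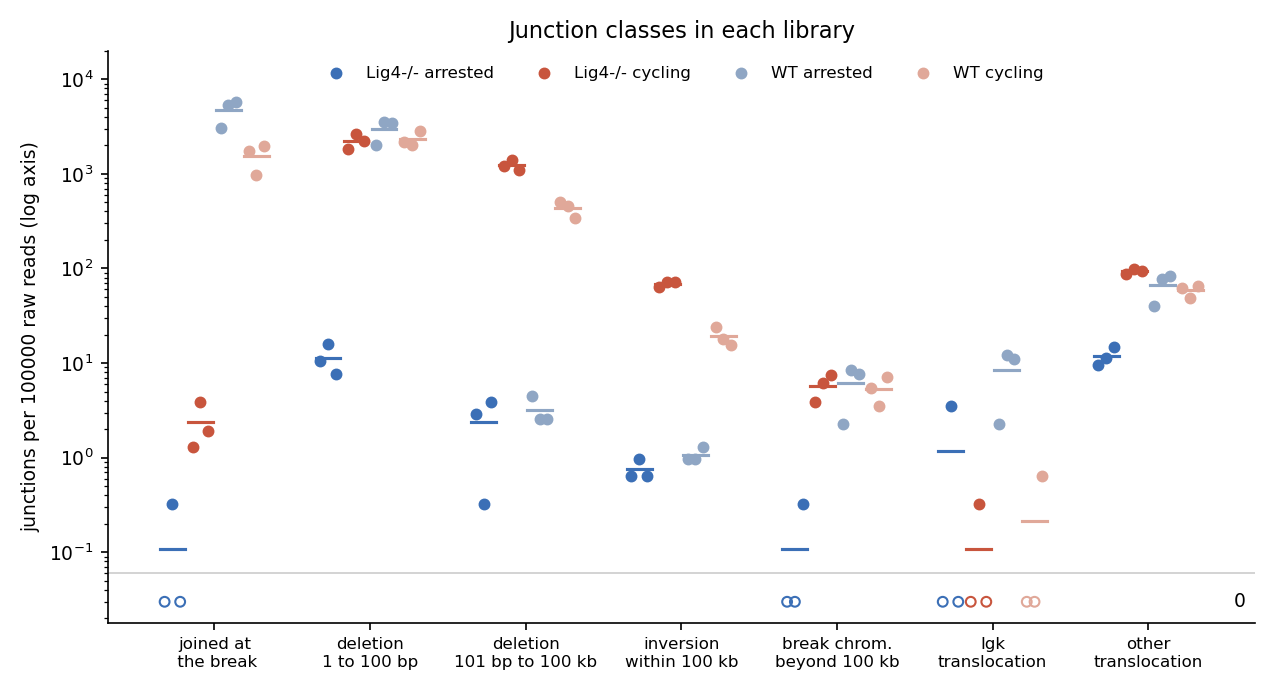
Junctions of each class per 100000 raw reads (log axis) in each library of the arrested and cycling Lig4-/- groups and, in pale colours, of the WT groups; points are libraries, bars are means of 3, and open circles below the line are libraries with 0. In Lig4-/- cells the cycling libraries lie above the arrested ones in every class drawn except Igk translocations.

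Deletions made up most of those junctions. A deletion here joins the bait to a prey on the far side of the break in the original orientation, and its length counts all bases missing from both sides. Deletions of 1 to 100 bp numbered 33, 49 and 24 in the arrested libraries and 5743, 8117 and 6892 in the cycling libraries. Their mean level was 11.4 ± 4.08 and 2227 ± 382 per 100000 raw reads, a ratio of 196 and a log2 difference of 7.64 (exact permutation p = 0.1). Deletions over 100 bp, up to 100 kb, stood further apart, at 9, 1 and 12 junctions against 3778, 4373 and 3375. The ratio of their means was 524 and the log2 difference 9.41 (exact permutation p = 0.1). Neither class overlapped between the groups. By distinct junctions the ratios were 27.8 for the shorter and 192 for the longer deletions. Within run 392 the log2 differences were 6.94 and 4.49 for the shorter class and 7.71 and 6.17 for the longer.

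Joining at the break with no base lost, with or without unaligned bases between bait and prey, was rare in both groups. It gave 0, 1 and 0 junctions in arrested libraries and 4, 12 and 6 in cycling ones. The ratio of the counts over 3 libraries, 22 against 1, was 22 with an exact 95% counting interval of 3.56 to 908. In WT cells the class held 9401 to 17835 junctions per arrested library and 3028 to 6073 per cycling library, orders of magnitude above either Lig4-/- group. Unaligned bases were present in 88.1%, 86.0% and 91.1% of all deletion-orientation rows of the arrested WT libraries. The class therefore does not count exact rejoining alone. One library stood against its label on this point: replicate 2 of arrested set c, used only for the run comparison and as an alternative, held 133 junctions joined at the break among its 411. Against that library the log2 difference within run 392 turned to -4.98, and against replicate 1 of set c, with 2 such junctions, it was 0.76. With set b alone as the arrested group the log2 difference was 3.31 (exact permutation p = 0.1). With all 9 arrested libraries of the clone it was 1.90 (exact permutation p = 0.29).

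Inverted junctions, in which the prey runs back towards the bait, numbered 2, 3 and 2 in arrested and 199, 224 and 223 in cycling libraries. The log2 difference was 6.27 and the ratio of means 92.3 (exact permutation p = 0.1), with no overlap between groups. Even the few arrested inversions were largely the same ones in each library. A5 (bait end 61987261, prey 61987330, 6 bp of overlap) and A6 (bait end 61987273, prey 61988208, 10 bp of overlap) each had exactly 1 row in all 18 junction lists read here, WT and cycling lists included. Without these 2 junctions 1 inversion remained in the arrested group against 640 in the cycling group. That ratio was 640 with an exact 95% counting interval of 114 to 25318. Within run 392 the log2 differences in all inversions were 5.01 and 4.72.

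The cycling inversions also lay elsewhere. Of the 199, 224 and 223 inversions, 181, 197 and 199 had their prey at lower coordinates than the break, on the bait's own side (91.0%, 87.9% and 89.2%). None of the arrested inversions did, but beside A5 and A6, which lie downstream, there was only 1, so no share can be given. By count the class was at least 192-fold higher in cycling cells against a floor of 3 counts over the group. The other arrested libraries of the clone held 0 to 2 such inversions each among 3 to 7. In the cycling WT libraries 82.4% to 89.6% of 48 to 74 inversions lay on that side. Inversions of the cycling Lig4-/- libraries used microhomology of at least 2 bp in 72.9%, 71.9% and 75.8% of rows, and their prey lay at a median of 965, 1000 and 847 bp from the break. Junctions in the original orientation but upstream of the break, which the classes above leave out, showed the same contrast at 0, 0 and 0 against 12, 11 and 15 rows, at least 12.7-fold higher with the same floor.

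Joins to other chromosomes differed least among the classes without overlap between the groups. Translocations outside the Igk region numbered 30, 35 and 46 in the arrested libraries and 274, 303 and 295 in the cycling ones. The level was 11.9 ± 2.63 and 93.6 ± 4.82 per 100000 raw reads, a ratio of 7.86, or 2.98 on the log2 scale (exact permutation p = 0.1), and the groups did not overlap. Within run 392 the log2 differences were 2.61 and 2.28. Joins on chromosome 15 beyond 100 kb from the break numbered 0, 0 and 1 against 12, 19 and 23; the ratio of counts was 54 with an interval of 9.29 to 2172.

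The interchromosomal share of junctions was far lower in cycling cells. It was 40.5%, 46% and 54.1% in the arrested libraries, with 95% Wilson intervals of 30.1 to 51.9, 36.6 to 55.7 and 43.6 to 64.3. It was 2.73%, 2.33% and 2.72% in the cycling libraries. Means were 46.9 ± 6.83% and 2.60 ± 0.232%, a difference of -44.3 points (exact permutation p = 0.1). Deletion rows hold repeats and translocation rows do not, so the share was also taken over distinct junctions, which merges separate fragments of one junction, and over distinct fragments. The difference over distinct fragments was -45.0 points. The share of distinct junctions was 41.7%, 56.1% and 64.8% in arrested and 12.9%, 12.1% and 12.4% in cycling libraries, again without overlap and 41.7 points apart. Within run 392 the difference in the share of rows was -34.5 and -7.01 points.

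Translocations with long overlaps between bait and prey overlapped in level between the groups, and the others did not. Among arrested translocations 21 of 30, 10 of 46 and 26 of 46 had at least 8 bp of overlap, a mean of 49.4 ± 24.9%. Cycling translocations had it in 26 of 274, 32 of 304 and 20 of 295, a mean of 8.93 ± 1.93%. Per 100000 raw reads, however, junctions with such long overlaps stood at 6.76, 3.22 and 8.37 in arrested and 8.37, 10.3 and 6.44 in cycling libraries. These ranges overlap, with a log2 difference of 0.52 (exact permutation p = 0.5). The remaining translocations, with shorter overlaps or insertions, stood at 2.90, 11.6 and 6.44 against 79.8, 87.6 and 88.5 per 100000, a log2 difference of 3.79 without overlap between the groups (exact permutation p = 0.1). The cutoff of 8 bp for levels was chosen after the values were seen. In 27 of the 57 arrested and 28 of the 78 cycling junctions with long overlaps the bait had lost 20 to 28 bp. Insertions were found in 53.9 ± 1.15% of cycling translocations and 22.2 ± 14.9% of arrested ones.

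**Figure D2:**
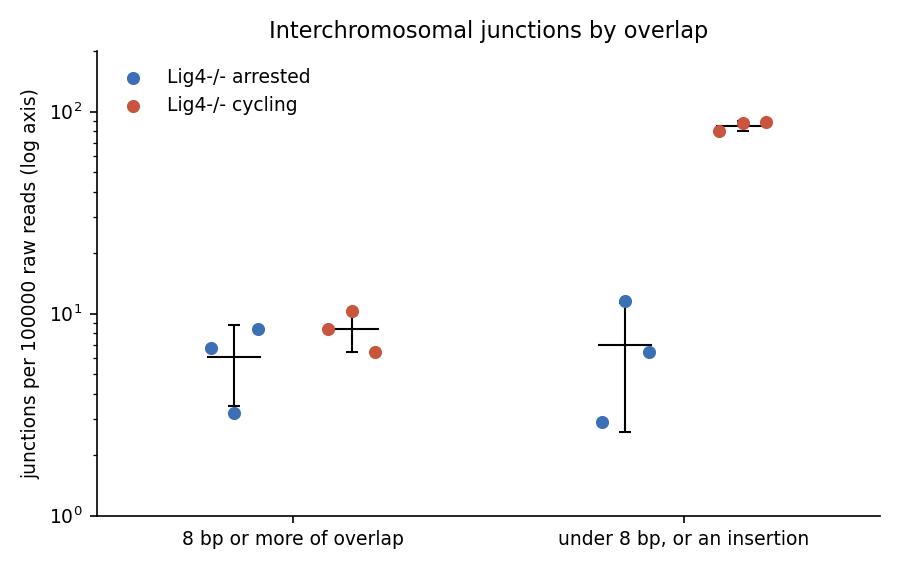
Interchromosomal junctions per 100000 raw reads (log axis), split by overlap of bait and prey; points are libraries, and black bars show the mean and SD of 3. With 8 bp or more of overlap the groups overlap at 3.22 to 8.37 and 6.44 to 10.3, and with less they lie apart at 2.90 to 11.6 and 79.8 to 88.5.

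Translocation partners were scattered. Cycling libraries held 844 distinct interchromosomal junctions over the group in 873 rows, on 19 to 20 chromosomes per library, and 54.1% to 55.6% of them lay in RefSeq genes. Prey orientation in them was near balance, with 47.8% to 54.5% on the plus strand. In the arrested libraries 66.7%, 76.1% and 47.8% of distinct interchromosomal junctions lay in RefSeq genes. The share of the genome within these genes was not computed, so no excess in genes can be read from either group. In windows of 10 kb, 13 held junctions from at least 2 cycling libraries. The leading one was in Zfp536, a zinc-finger gene, on chromosome 7 (37504274 to 37504280), with 1, 1 and 4 rows, all on the minus strand. An unannotated site on chromosome 3 (70441926 to 70441939) had 1, 1 and 2 rows, also all minus. Sites on chromosome 6 at 47338314 and at 117432865 to 117432868 had 1 row in each library. Scn11a, a sodium channel gene, on chromosome 9 and Tmem164 on chromosome X each had 3 rows in 2 libraries. Arrested libraries held 121 distinct junctions in 122 rows and 1 such window, at base 93206302 of chromosome 2 in Tspan18 (A7), with 1 row in each of replicates 1 and 2 and 11 bp of overlap. Arrested and cycling groups had 2 interchromosomal junctions in common, 1.65% of the arrested and 0.237% of the cycling ones. At these depths a site with a few rows cannot be called recurrent beyond its count.

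Translocations to the Igk region (chromosome 6, 67 to 71 Mb) went the other way but rested on 1 library. Counts were 0, 11 and 0 in the arrested and 0, 1 and 0 in the cycling group. The shares of translocations were 0%, 23.9% (95% Wilson interval 13.9 to 37.9) and 0% in arrested libraries, where 0 of 30 and 0 of 46 allow up to 10% and 6.52%. No difference was detectable (log2 difference -0.98, exact permutation p = 1.0), and without arrested replicate 2 the sign turned to 0.53. All 11 rows lay within 100 bp of Igkj1, the Jk1 segment, between bases 70722568 and 70722645, all on the minus strand, and 9 of them had a read length of 251 to 256 bp. The arrested WT library of the same run, 382, held 38 Igk rows, 13 of them that close to Jk1, and shared 1 interchromosomal junction with this library. The part of that run in the result was not tested.

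Among deletions, those of cycling cells used microhomology more often. At least 2 bp of overlap were present in 38.1%, 1.96% and 38.9% of deletion-orientation rows in the arrested libraries and in 61.6%, 63.0% and 61.9% in the cycling libraries. Groups did not overlap, and the means differed by 35.9 points (exact permutation p = 0.1), or by 23.7 without arrested replicate 2. With each distinct junction counted once the values were 40%, 3.03% and 36.4% against 42.3%, 44.2% and 44.1%, a difference of 17.1 points, or 5.34 without that replicate. The comparison within deletions was chosen after the values were seen. Over junctions of all classes the share was 58.1%, 27% and 62.4% against 60.9%, 62.3% and 61.2%. Those groups overlapped, 12.3 points apart by the exact permutation test (p = 0.4, adjusted p = 0.55), and here the translocations with their long overlaps are included. Counted once per distinct junction the difference over all classes was -8.31 points, over distinct fragments it was 3.55 points (exact permutation p = 1.0), and by rows within run 392 it was 4.24 and 37.4 points.

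Repeated rows of cycling deletions gathered on those with short microhomology. Deletions with 2 or 3 bp of overlap had 9.62, 10.4 and 9.03 rows per distinct junction, those with 0 or 1 bp 4.21, 4.80 and 4.19, and those with insertions 2.86, 3.00 and 2.73. The order was the same in all 3 libraries. By length of overlap, 2 bp was the commonest at 33.8 ± 1.04% of cycling deletions, followed by 3 bp at 19.9 ± 0.364% and 1 bp at 16.02 ± 0.218%. Blunt joins made up 6.32 ± 0.834%. In the arrested deletions 2 bp of overlap was found in 21.4 ± 17.5%, from 2.0% to 36.1%, which overlaps the cycling range of 32.6% to 34.5%. Overlaps of 3 bp were found in 7.14%, 0% and 0% of arrested deletions, below the cycling range of 19.6% to 20.3% in each library.

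**Figure D3:**
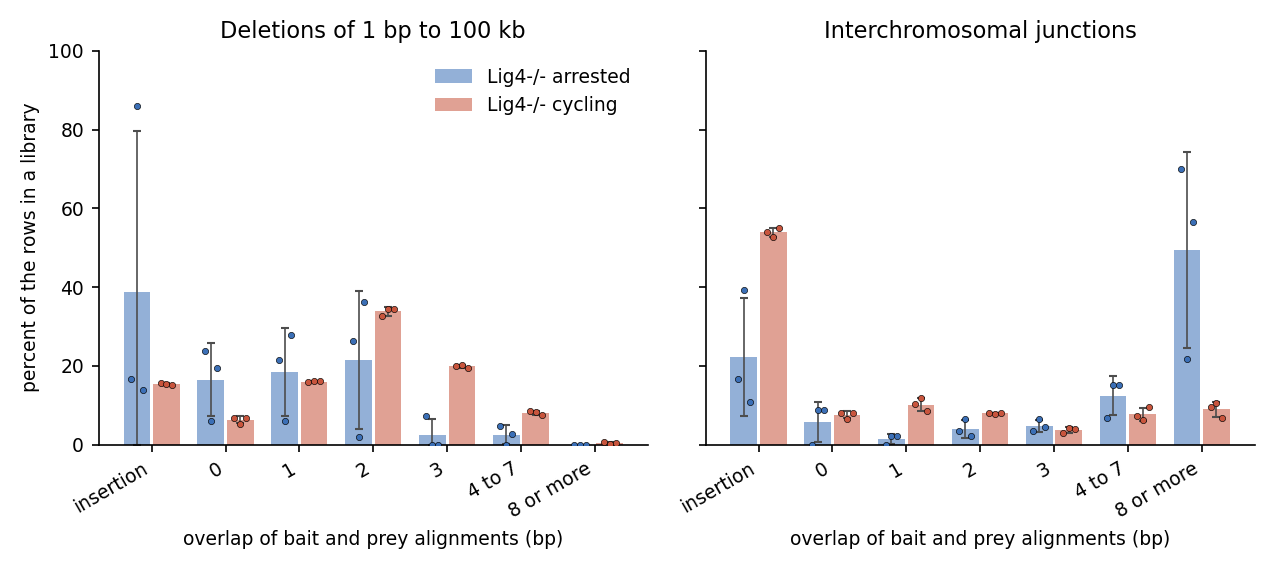
Overlap of bait and prey alignments (bp; insertion means unaligned bases between them) as a percent of rows in deletions (left) and interchromosomal junctions (right); bars are means of 3 libraries, whiskers SD, points libraries. Cycling deletions peak at 2 bp (33.8%), and arrested translocations have their largest mean at 8 bp or more (49.4%).

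Mean overlap length, over junctions without insertions, was 5.03, 5.45 and 5.55 bp in arrested and 2.26, 2.24 and 2.23 bp in cycling libraries (difference -3.10 bp, exact permutation p = 0.1, no overlap). Within run 392 it was -2.49 and -0.42 bp. Without the translocations it had the opposite sign, at 0.048 bp on chromosome 15 and 1.05 bp in deletions.

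Microhomology in cycling cells varied with deletion length. It was present in 56.0%, 58.4% and 58.5% of deletions of 1 to 100 bp, in 69.9%, 72.0% and 70.1% of those over 100 and up to 1000 bp and in 70.8%, 70.6% and 65.6% of longer ones. In all 3 libraries the shortest class had the lowest share. Insertions went down over the same classes, from 17.2 ± 1.5% through 13.3 ± 1.13% to 10.1 ± 2.75%. Cycling insertions were mostly short, with 59.7%, 60.3% and 57.4% of them at 1 to 4 bp.

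Insertions over all classes were found in 16.2%, 62% and 11.8% of arrested junctions and 16.8%, 16.4% and 16.4% of cycling ones. No difference was detectable (difference -13.5 points, exact permutation p = 1.0), and its sign rested on arrested replicate 2, without which it was 2.53 points. In that replicate 44 of 51 deletion-orientation rows had unaligned bases, and in 33 of the 44 (75%, 95% Wilson interval 60.6 to 85.4) at least 5 such bases replaced an equal number of lost bases to within 2. Such length-neutral rows were 1 of 7 and 1 of 5 in the other arrested libraries and 5.67%, 3.68% and 6.43% of 1500, 1930 and 1571 in the cycling ones. Where the lengths were exactly equal, in 29 rows of arrested replicate 2, 42.2% of the unaligned bases matched the reference bases they stood for. Without length-neutral rows its insertion share was 43.3%.

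Long deletions were a feature of cycling cells. Deletions over 1000 bp numbered 946, 1048 and 805, which is 9.93%, 8.38% and 7.84% of deletion-orientation rows, with longest losses of 84749, 91011 and 91011 bp. There were none in the 3 arrested libraries, where the longest losses were 180, 124 and 362 bp. Among the clone's other arrested libraries only replicate 2 of set c held any, 6 (1.66%) with a longest loss of 1095 bp. Per raw read this is at least 933-fold more in cycling cells, against a floor of 3 counts over the group. As a share, 0 of 42, 0 of 51 and 0 of 36 allow up to 7.14%, 5.88% and 8.33% in single libraries, and 0 of 129 over the group allows up to 2.33%. The share over 100 bp was 21.4%, 1.96% and 33.3% in arrested and 39.7%, 35.0% and 32.9% in cycling libraries. Here the groups overlapped, 16.9 points apart by the exact permutation test (p = 0.2, adjusted p = 0.33). Of distinct junctions it was 22.5%, 3.03% and 27.3% against 56.9%, 60% and 58.7%, without overlap and 40.9 points apart. Over distinct fragments the difference was 11.6 points (exact permutation p = 0.1). By rows within run 392 the differences were 12.02 and 24.6 points.

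At the short end the order was reversed. Losses of 1 to 10 bp made up 21.2 ± 4.22% of arrested and 11.4 ± 0.885% of cycling deletions, with lowest and highest values of 16.7% and 25.0% against 10.4% and 12.1%. Losses of 26 to 50 bp were the most frequent of the bins up to 100 bp in cycling cells at 25.7 ± 1.91%, against 22.4 ± 9.99% in arrested cells. Median losses were 44.5, 26 and 86 bp in arrested and 53, 46 and 44 bp in cycling deletions, which overlap. Without length-neutral rows they were 44, 2.5 and 86 bp against 56, 46 and 44 bp, with 18 rows left in arrested replicate 2.

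**Figure D4:**
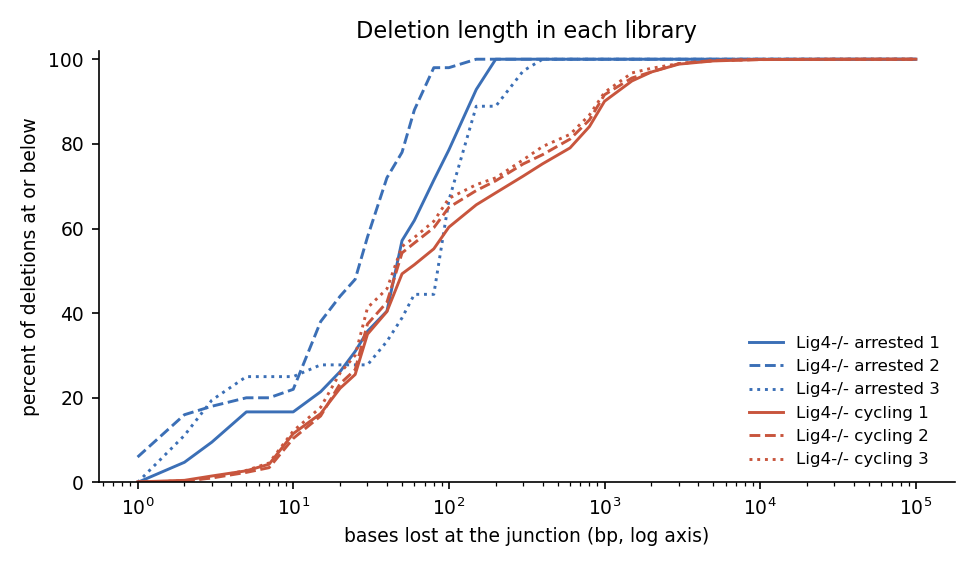
Cumulative share of deletions (percent, vertical axis) with at most the given number of bases lost (bp, log axis) in each library; colours are groups and line styles replicates. The arrested curves reach 100% by 180, 124 and 362 bp, whereas 7.84% to 9.93% of cycling deletion-orientation rows lie beyond 1000 bp.

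Loss was also measured on each side. On the prey side of deletions the median was 22.5, 10 and 38 bp in arrested and 27, 24 and 23 bp in cycling libraries (log10 difference 0.074, exact permutation p = 0.7). With each distinct junction counted once that difference was 0.78 (exact permutation p = 0.1). On the bait side, over all junctions, it was 24.5, 16 and 25 bp against 13, 13 and 12 bp. The groups did not overlap there (log10 difference -0.22, exact permutation p = 0.1), but within run 392 the sign differed, at -0.32 and 0.64. Counted once per distinct junction the bait difference was -0.019 (exact permutation p = 0.6). In deletions alone, without the translocations, bait medians of 17, 5 and 24 bp overlapped 12, 12 and 11 bp.

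The same deletions came back across cycling libraries. Of 5290 distinct junctions in the cycling group, 450 were in all 3 libraries, and these held 59.5% of the rows. In the arrested group 4 of 213 were in all 3, with 6.56% of the rows, and A5 and A6 were among the 4. Arrested libraries held 74 to 100 rows and cycling ones 10022 to 13060. Sharing between libraries was not compared at equal depth, so these numbers do not show a difference in recurrence. Within single libraries, at an equal depth of 74 rows, the arrested ones had 72, 62.9 and 62.9 distinct junctions and the cycling ones 63.8, 62.2 and 61.5. No difference was detectable there (difference -3.47, exact permutation p = 0.4).

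C1, with the 2-bp repeat GA and 9 bp lost, led every cycling library at 532, 571 and 605 rows, or 5.31%, 4.37% and 5.59%. It came as 171 to 212 distinct fragments per library, so its rows were not copies of one read. It was in none of the 3 arrested libraries, where 0 of 259 rows over the group allow up to 1.16%. C2 and C4 share the left GAG and differ in the right copy, with 27 and 19 bp lost, and held 2.83 ± 0.193% and 2.53 ± 0.326% of cycling rows. C3 used GC with 29 bp lost (2.62 ± 0.208%), and C5 used TCC with 44 bp lost (1.77 ± 0.327%). C6 to C10 had 1 or 2 bp of overlap, 11 to 33 bp lost and mean shares of 1.11% to 1.74%.

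Together the 10 leading junctions held 19.2%, 22.4% and 23.0% of cycling rows. In the arrested libraries they gave 2, 1 and 1 rows. Of the 6 arrested libraries in the clone's other sets, replicate 2 of set c held 20 rows of them (4.87%), 5 of C1 among these (1.22%), and the rest 0 to 2 rows. Cycling WT cells had the same junctions at 6.61%, 11.3% and 4.95% of rows, and arrested WT cells at 0.195%, 0.163% and 0.111%. As the set was picked by its share in the cycling Lig4-/- libraries, these values are a description.

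**Figure D5:**
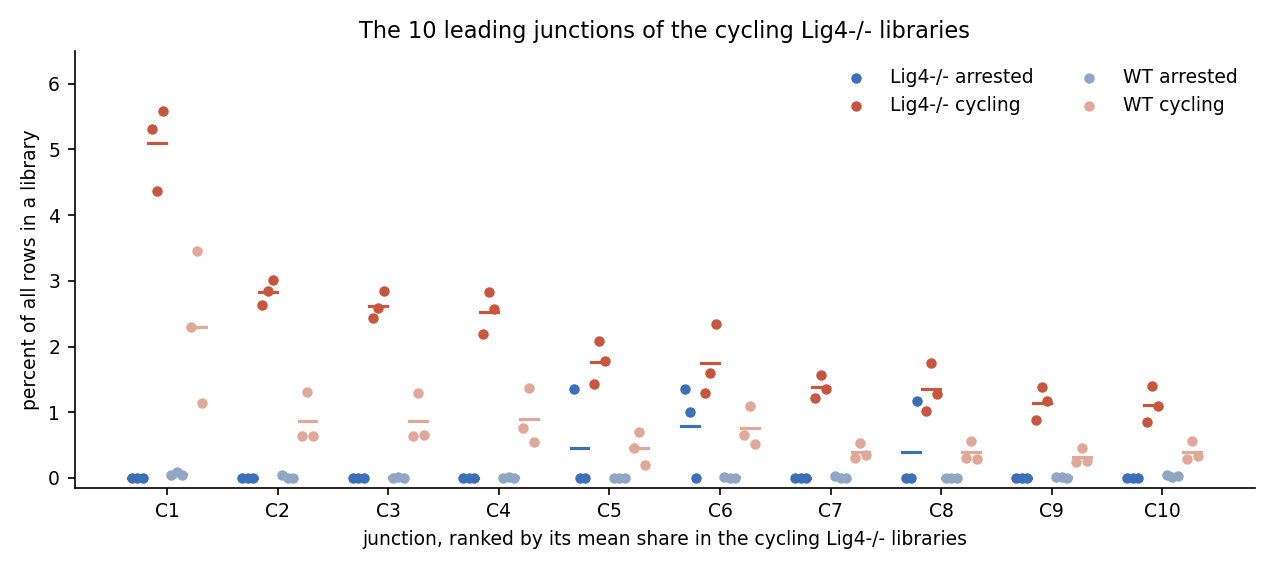
Percent of all rows in a library held by each of the 10 leading junctions of the cycling Lig4-/- group (C1 to C10) in the 4 groups; points are libraries and bars means of 3. C1 holds 4.37% to 5.59% of cycling Lig4-/- rows and 1.14% to 3.45% of cycling WT rows.

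Junctions seen in at least 2 arrested libraries numbered 8. A1, with 1, 3 and 2 rows, has an unaligned G and 2 bp lost, and its G is also the base that follows the break in the intact locus, so the net change is 1 missing base. A2, with 2, 1 and 2 rows, is of the same kind, with 3 unaligned bases equal to those that follow the break in 60% of its rows and a net loss of 2 bp in those. A3, with 2, 0 and 1 rows, lost 3 bp from the bait alone, and A4 lost 2 bp. A1 was listed at 1.12 ± 0.143% of rows in arrested WT and 0.052 ± 0.033% in cycling Lig4-/- libraries. A3 was at 4.12 ± 0.145% in arrested WT and 0.305 ± 0.045% in cycling Lig4-/- libraries. A8 is C6, with the repeat GT, and was the one leading cycling junction seen in 2 arrested libraries.

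Many arrested deletions nonetheless had a counterpart in cycling cells. Of 40, 33 and 23 distinct deletion-orientation junctions per arrested library, 25, 16 and 15 (62.5%, 48.5% and 65.2%) were also in a cycling library. Over the groups 49 junctions were shared, 55.1% of the 89 arrested and 1.28% of the 3842 cycling ones. The cycling lists are far longer, which bears on the first of these shares.

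The change with cycling was set against that in WT cells by permuting the labels within each genotype (400 relabellings). Such relabelling assumes no change with cycling in either genotype, so a small p does not by itself show that the changes were unequal. In WT cells log2 abundance went from 12.9 to 12.1 with cycling, so the changes differed by 7.81 (exact permutation p = 0.01, 0.02 after adjustment over 4 such tests). The interchromosomal share in WT went from 0.952% to 1.35%, and the changes differed by -44.7 points between the genotypes (exact permutation p = 0.005, adjusted p = 0.02). The arrested WT share left room for a fall of less than 1 point, against an arrested Lig4-/- share of 46.9%, so the baselines set most of that size, and it says nothing of a fall in translocations, whose level was higher in cycling Lig4-/- cells. With each distinct junction counted once these became 3.47 (exact permutation p = 0.1) and -12.4 (exact permutation p = 0.64), so neither passed. The microhomology share in WT was 1.03 ± 0.255% in arrested and 21.03 ± 7.21% in cycling libraries, and the share of deletions over 100 bp was 0.0487 ± 0.0348% and 10.5 ± 3.53%. By rows the genotypes were not shown to differ in these (-7.66 and 6.51 points, exact permutation p = 0.69 and 0.69). With each distinct junction counted once the call on microhomology changed, to -31.1 points (exact permutation p = 0.02, not adjusted), and that on long deletions did not, at -0.36 points (exact permutation p = 0.99).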

How the data were processed

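Each sample was a genomic DNA library from v-Abl pro-B cells, made with primers at the c-Myc locus and without the enzyme blocking step, per the labels' protocols. The authors deposited 1 list of junctions per library from a pipeline named JoinT-seq, per the labels; each row holds other values than a measurement per feature, namely the positions, orientation and alignment ends of 1 junction. Bowtie2 and mm10 are named in the submitters' processing notes; other steps are not given in the sources used here. Rows were tallied in Python 3.11.15 with pandas 2.3.3 and SciPy 1.17.1. The break was the most frequent bait end and prey start in arrested WT libraries. Microhomology was an overlap of at least 2 bp; deletions and inversions lay within 100 kb. Levels are log2 of the count plus 0.5, per 100000 raw reads. For 18 measures the group means were compared by exact permutation, two-sided, with Benjamini-Hochberg adjustment, and 4 tests against WT. Calculations were tested on simulated data. The members, measures and named junctions were chosen with earlier results of these data known. Named were the 10 junctions with the highest mean share in cycling libraries, arrested junctions in at least 2 libraries, and translocation windows of 10 kb in at least 2 libraries (at most 10 each); Myc and Igkj1 positions came from RefSeq (GRCm38.p6). Replicates shared no read name and were kept apart. In chi-square tests of overlap classes arrested replicates 1 and 3 were not shown to differ (p = 0.84, few junctions), and the other pairs differed (largest p = 0.014). These tests count every row as independent, and cycling rows repeat junctions, so the p-values of cycling pairs are likely too small. Arrested replicates shared no fragment; cycling replicates shared 13.9% to 15.6% of the smaller library's. The labels number the replicates but do not say that same-numbered libraries of the groups belong together. Over the measures same-numbered libraries had correlations of 0.27, 0.20 and 0.15, within the range of differently numbered ones (-0.57 to 0.28). A pairing was thus not shown, and an exact sign-flip test blocked by replicate was made only as an alternative. Alternatives were distinct junctions or fragments counted once, other cutoffs, all 9 arrested libraries of the clone, and each library left out.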

Additional observations from a re-analysis of the deposited data

Results flagged for a closer look

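The change of junction abundance with cycling differed between Lig4-/- and WT cells by 7.81 on the log2 scale, by a permutation of labels within each genotype. The change of the interchromosomal share differed between the genotypes by -44.7 points in the same test. Arrested WT libraries had a share of 0.952% and arrested Lig4-/- libraries one of 46.9%, so these baselines set most of the size in points, and the level of translocations was higher in cycling than in arrested Lig4-/- cells. Both fell below the threshold of 0.05 when repeated junctions were counted as rows and neither did when each distinct junction was counted once. The relabelling assumes no change with cycling in either genotype, so passing the threshold does not by itself show that the changes were unequal.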

How the results depend on the processing

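Over 253 alternative values, 228 kept their direction and their side of 0.05, 13 turned sign, 10 passed the threshold and 2 lost it. For measures of cycling against arrested Lig4-/- cells, tests of 3 libraries against 3, or with 1 left out, cannot give p below 0.1. Their side of 0.05 was thus fixed in those settings, and only their direction could change. These measures could pass the threshold only with all 9 arrested libraries. With all 9 arrested libraries of the clone (smallest exact permutation p 0.00455) log2 differences were 6.49 for all junctions, 7.55 and 8.74 for deletions of 1 to 100 bp and longer, 5.51 for inversions, 2.96 for joins beyond 100 kb (exact permutation p = 0.0091) and 2.44 for other translocations; mean overlap length differed by -3.44 bp, the share of long deletions by 15.3 points (exact permutation p = 0.032), the interchromosomal share by -47.4 points, and the leading junction share turned to -1.66 points. Counting distinct junctions once turned the microhomology share to -8.31 points, the insertion share to 1.58 and the WT contrast of long deletions to -0.36; the WT contrasts of abundance and interchromosomal share lost the threshold at 3.47 and -12.4, and that of microhomology passed it at -31.1 points (exact permutation p = 0.02). A microhomology minimum of 4 bp turned its share to -24.3 points; mean overlap length turned to 0.048 bp on chromosome 15 and to 1.05 bp in deletions. Without arrested replicate 2 the values that turned were Igk translocations (0.53, log2), their share (0.11 points), insertions (2.53 points), prey loss (-0.073, log10) and the WT contrast of long deletions (-1.97 points); without arrested replicate 1 the leading junction share turned to -0.35 points. The cause was not tested, beyond what fewer rows or libraries bring by construction.

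Leaving out 1 library at a time gave log2 differences of 6.92 to 7.14 for all junctions, 2.91 to 3.84 for joins at the break, 7.39 to 7.90 and 8.45 to 9.98 for shorter and longer deletions, 6.19 to 6.43 for inversions, 4.37 to 5.16 beyond 100 kb, -1.73 to 0.53 for Igk and 2.84 to 3.14 for other translocations. Shares moved over 1.26 to 18.9 points for microhomology, -22.6 to 2.53 for insertions, 8.45 to 24.1 for long deletions, -47.5 to -40.7 for interchromosomal junctions, -11.8 to 0.11 for Igk and -0.35 to 1.24 for the leading junction. Mean overlap moved over -3.25 to -3.0 bp, prey and bait loss over -0.073 to 0.20 and -0.28 to -0.18 (log10), and distinct junctions over -5.0 to -0.44. WT contrasts moved over 7.65 to 8.09, -18.7 to -1.06, -1.97 to 13.7 and -47.9 to -41.1. The replicate block gave the same log2 difference of 7.03 for all junctions (exact sign-flip p = 0.25, the smallest for 3 pairs). No call on cycling against arrested Lig4-/- cells could therefore change with the block. The calls on the WT contrasts, where p could go below 0.05, did not change. The 74 to 100 junctions of an arrested library limit its shares to steps of 1 point or more.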
